A study of Arabidopsis thaliana with 16 samples.

Results

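The genes described here were chosen as genes for glycosyl, sugar and cell wall enzymes that have an array probe of their own. A probe was taken where its annotation gave 1 gene and where the names of that gene in the RefSeq TAIR10.1 table held a word such as glycosyl, glucosyl, galact, pectin or starch, with none of the words kinase, dehydrogenase, reductase and tRNA. This gave 5 genes, namely GH9B8, GH9B11, GH9B12, GH9B16 and UGT74D1. AT1G35510 and AT1G73740, which the selection names outright, made 7 of the 691 genes that a probe names alone. The tables used here give these 2 a locus name and no description, so no role is stated for them and their place in the set rests on the selection alone. A gene whose listed names do not spell out its enzyme could not be found in this way.

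The pete1 group was 8 arrays of the Arabidopsis thaliana pete1 mutant, and the WT group was 8 arrays of wild type plants. Both groups were ecotype Columbia 0 raised on soil, and total RNA was measured. The array titles carry the word soil for pete1 alone. The mutant is without 1 isoform of plastocyanin, the copper protein that carries electrons to photosystem I. The labels give no organ, age or allele, and nothing in them says that the arrays of a group came from different plants. The p-values therefore rest on the spread among arrays, which may be technical. The question of the comparison is how transcript levels in the soil-grown mutant differ from those in WT.

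Plant family 9 glycosyl hydrolases are endo-glucanases that cut the beta-linked glucan chains of the cell wall. Membrane-anchored members act in cellulose synthesis, and the secreted members act on the wall during growth and wall remodelling. UDP-glucosyl transferases (UGT genes) move glucose from UDP-glucose onto small molecules such as hormones and secondary metabolites. UGT74D1 is known to glucosylate auxins.

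Each array gave 3439 intensities, and 13.2% to 24.6% of these were 0. No probe was annotated to PETE1 or PETE2, the plastocyanin genes, alone or among several genes (0 probes), so the genotype labels could not be checked on these arrays. Probes annotated to several genes were not searched for cell type markers. Of 52 genes listed as markers of leaf mesophyll and of other cell types and organs, 1 had a probe of its own. This was the light-harvesting gene LHB1B2 (listed as LHCB1.5), at 4.35 ± 0.96 in pete1 and 3.19 ± 2.13 in WT (normalized log2 intensity, mean ± SD of 4 pair averages), a level in the 99.3rd percentile of all probes. Fewer cells of a type and less RNA per cell cannot be told apart in such samples.

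Replicates 1 and 2 of a group, and likewise 3 and 4, 5 and 6, and 7 and 8, deviated together from the group mean and were averaged. Each group therefore had 4 pair averages, given below in that order. Levels are quantile-normalized intensities on the log2 scale. Values below -4.10 were set to that value, the common floor, the highest of the 16 arrays' own lower limits. It held 28.4% of all values.

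By mean level the 7 genes ranked between the 24.1st percentile of all probes (UGT74D1) and the 72.5th percentile (GH9B12), with GH9B11 at the 47.1st and the other 5 no higher than the 36.1st. Of 56 pete1 values 17 lay at the floor, and of 56 WT values 24 did. The deposited intensity was 0 for 12 of these pete1 values and 8 of these WT values. GH9B16 was 0 on 5 of 8 pete1 arrays and UGT74D1 on 4 of 8, each with 0 of 8 in WT. GH9B8 and AT1G73740 had more zeros in WT. Each of the 7 genes was above the floor on at least 1 array.

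In pete1 none of the 7 genes passed the test across all probes (0 of 7, limma with Benjamini-Hochberg adjustment over 3231 probes, threshold 0.05), where 0.774% of the probes passed. With the pair number as a replicate block, 11 probes (0.34%) passed in place of 25, and again 0 of the 7 genes. The log2 change from WT was positive for 4 of the genes and negative for 3, and positive for 53.9% of all probes. Its median was 0.11 over the 7 genes and 0.04 over all probes. An unadjusted p under 0.05 was found for 4 of the 7 genes (GH9B8, AT1G35510 and AT1G73740 higher and GH9B12 lower in pete1), against 14.4% of all probes (7.46% higher and 6.96% lower). On the deposited scale, with no normalization, an unadjusted p under 0.05 was found for 54 probes higher and 383 lower of 3228, and the median change was -0.30 over all probes and -0.12 over the 7 genes, of which 3 were positive. GH9B8, AT1G35510 and AT1G73740 are the genes that the selection names, and it was made with earlier results of these arrays known, so the count of 4 of the 7 is a description and no evidence of its own.

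**Figure D1:**
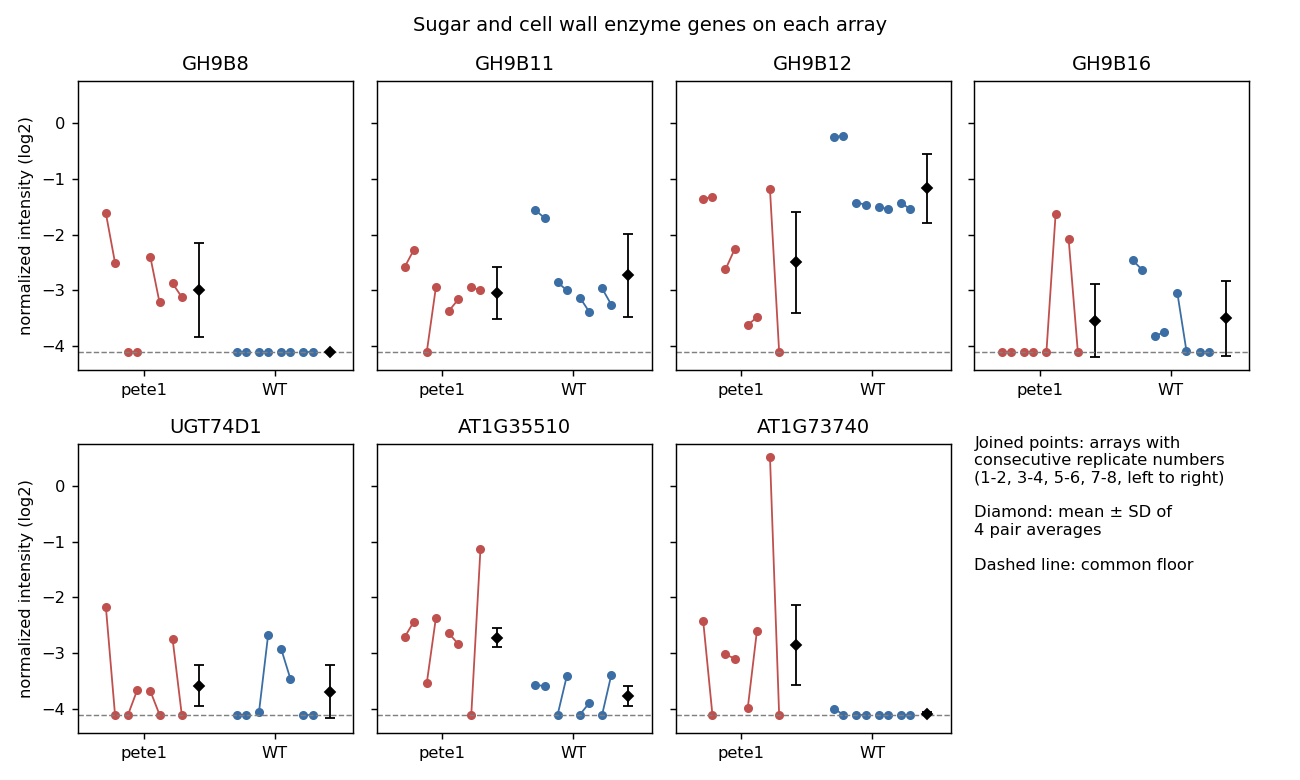
Normalized intensity (log2) of each of the 7 genes on every array, pete1 left and WT right. Joined points are arrays with consecutive replicate numbers, diamonds are the mean ± SD of 4 pair averages, and the dashed line is the common floor at -4.10; the WT arrays of GH9B8 all lie on that line, and several pete1 pairs hold 1 array at the floor and 1 far above it.

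GH9B8, a family 9 glycosyl hydrolase, was above the floor on 6 of 8 pete1 arrays and on 0 of 8 WT arrays. Its pair averages were -2.06, -4.10, -2.81 and -2.998 in pete1, against -4.10 in each of the 4 WT averages. In pete1, replicates 3 and 4 lay at the floor with all WT arrays, and the other 6 pete1 arrays lay above it. The deposited intensity was 0 on 1 of 8 pete1 arrays (median 0.140, highest 0.253) and on 6 of 8 WT arrays (median 0, highest 0.0487). The log2 change was 1.11 (SE 0.40, 95% interval 0.20 to 2.03) and did not pass the test (limma adjusted p = 0.248). An exact two-sided permutation test of the 4 against 4 pair averages gave p = 0.143.

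Since all WT values of GH9B8 sat at the floor, the fit saw no spread among them, and the size of the change followed the floor. Probes at the floor on all arrays were left out, so GH9B8 entered the fit through its pete1 arrays alone. A negative change was not possible for it with this floor, and its interval and p-values are a description. The size of the change moved with the floor used. The change of GH9B8 was 2.43 with the floor of each array and 0.38 with the common floor doubled. The floors of single arrays ran from -5.66 to -4.10 in pete1 and from -7.06 to -5.08 in WT. A probe at its floor on every array therefore read higher in pete1 by construction. The median change over all probes was 0.22 with the floor of each array, against 0.04 with the common floor. As 2 pete1 arrays lay at the floor too, the fold of 2.16 is not a lower bound. With 16 arrays taken as independent the adjusted p was 0.0202, in a fit that called 12.6% of all probes.

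GH9B12, another family 9 glycosyl hydrolase and the brightest of the 7 genes, averaged lower in pete1. On the log2 scale its 4 levels were -1.34, -2.44, -3.55 and -2.65 in pete1, against -0.24, -1.44, -1.52 and -1.48 in WT. The groups overlapped, because the average of pete1 replicates 1 and 2 lay above 3 of the 4 WT averages. Within each pair number the pete1 average was the lower one (4 of 4), by up to 2.03 on the log2 scale. Deposited intensities ran from 0.0605 through a median of 0.122 to 0.540 in pete1, and from 0.353 through 0.436 to 0.780 in WT.

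The log2 change of GH9B12 was -1.32 (SE 0.50, 95% interval -2.48 to -0.17; limma adjusted p = 0.274; exact permutation p = 0.114). With the pair number as a replicate block the adjusted p was 0.0980, and with a block for each replicate number over 16 arrays it was 0.0132, in a fit that called 17.5% of all probes. In pete1, replicate 7 gave -1.19 and replicate 8 gave -4.10, the floor, so the fourth pair average stands between unlike arrays. Without pete1 replicate 8 the change was -0.97 (adjusted p = 0.510), and without pete1 replicate 7 it was -1.70 (adjusted p = 0.257).

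GH9B11 lies next to GH9B12 in the gene order of chromosome 2. The pair averages of GH9B11 were -2.43, -3.52, -3.26 and -2.97 in pete1, against -1.63, -2.93, -3.26 and -3.11 in WT. The groups overlapped over most of their range, with WT replicates 1 and 2 at the top. The log2 change was -0.32 (SE 0.41, 95% interval -1.26 to 0.63; limma adjusted p = 0.773). Without WT replicates 1 and 2 it was 0.051, on the other side of 0.

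GH9B16, on chromosome 4, lay at the floor on 6 of 8 pete1 arrays and on 2 of 8 WT arrays. The 4 averages were -4.10, -4.10, -2.87 and -3.09 in pete1, against -2.54, -3.78, -3.56 and -4.10 in WT. Only replicates 6 (-1.63) and 7 (-2.09) were above the floor in pete1, and their partners 5 and 8 were not. The log2 change was -0.04 (SE 0.43, 95% interval -1.04 to 0.96; limma adjusted p = 0.973), and its sign turned with the floor doubled (0.16) and with array weights (0.24).

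The fitted changes of the 4 family 9 genes had both signs, positive for GH9B8 and negative for the others. The change of GH9B8 followed the floor, so the sizes of its differences from the others are not given. The change of GH9B12 was the lower one, by 1.01 on the log2 scale, when set against that of GH9B11, and it was the lower one in each pair number (4 of 4). All 6 pairs of these genes were compared, those with GH9B8 among them, and none passed (0 of 6). An exact two-sided permutation test that turns signs within the 4 pair numbers cannot go below p = 0.125. With the pair numbers ignored, the smallest permutation p adjusted over the 6 was 0.0571. GH9B11 against GH9B12 had it, as did GH9B8 against GH9B11 and against GH9B12. The comparisons with GH9B8 were partly set in advance by the floor. The adjusted value of GH9B11 against GH9B12 rests on sharing the smallest p with them, and is a description. The comparisons were chosen after the values had been seen.

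A further 7 probes are annotated to at least 2 family 9 genes at once, and no gene can be named from them. Of these, 6 were above the floor on some array and 0 passed the test. Their log2 changes ran from -1.73 to 0.79, with 5 below 0 and 1 above (limma adjusted p from 0.251 to 0.903). Transcripts of near-identical family members may bind one another's probes, so the values of single GH9B genes are uncertain to that extent.

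**Figure D2:**
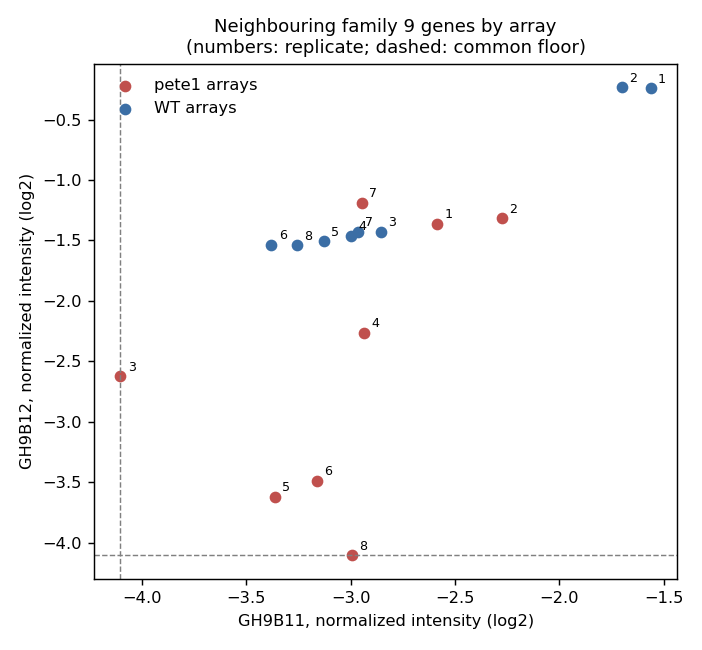
Normalized intensity (log2) of GH9B11 (horizontal axis) and GH9B12 (vertical axis), with 1 point per array, numbered by replicate, and dashed lines at the common floor. WT replicates 1 and 2 are highest for both genes, 5 of the 8 pete1 arrays lie below every WT array for GH9B12, and GH9B11 does not separate the groups.

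Over the 16 arrays the levels of GH9B11 and GH9B12 went together, with r = 0.63 on all arrays and r = 0.61 after the group means were removed. This is a description, since the points share arrays and array pairs. The probes of these genes are also 12 numbers apart on the array. Of all pairs of probes 12 numbers apart, 16.4% had an r at or above that of these genes after the group means were removed, and the median r was 0.22. The part that the place on the array has in the likeness of these genes was not tested.

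UGT74D1, the auxin glucosyl transferase, was at the floor on 4 of 8 pete1 arrays and on 4 of 8 WT arrays. Its pair averages were -3.13, -3.88, -3.89 and -3.42 in pete1, against -4.10, -3.37, -3.19 and -4.10 in WT. The groups overlapped, pete1 being higher in the first and last pair and lower in the others. The log2 change was 0.11 (SE 0.31, 95% interval -0.59 to 0.81; limma adjusted p = 0.897). Its sign turned in 9 of 40 other settings, with values from -0.23 with array weights to 0.57, and it was -0.15 without pete1 replicate 1.

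AT1G35510 came closest to the threshold. The averages of AT1G35510 were -2.58, -2.95, -2.74 and -2.62 in pete1, against -3.58, -3.76, -4.003 and -3.75 in WT. Every pete1 average was above every WT average, which was so in either direction for 8.05% of all probes and with pete1 on top for 4.15%. The log2 change was 1.05 (SE 0.19, 95% interval 0.61 to 1.48), an intensity ratio of 2.07. It did not pass the test (limma adjusted p = 0.0558), and the exact permutation p was 0.0286, the smallest that 4 against 4 averages can give. That permutation ignored the pair numbers, and one that turns signs within them cannot go below p = 0.125. With the pair number as a replicate block the limma adjusted p of AT1G35510 was 0.0935.

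The narrow spread of the AT1G35510 averages in pete1 (SD 0.17, n = 4) hid wide gaps inside them. In pete1, replicate 7 was at the floor with a deposited intensity of 0, and replicate 8 was at -1.14 with 0.548, the highest of all 16 arrays. Replicates 3 and 4 were at -3.54 and -2.36. In WT, 3 of 8 arrays lay at the floor and the highest was -3.39. Without pete1 replicate 8 the change was 0.68 (adjusted p = 0.433), and without pete1 replicate 3 it was 1.19 (adjusted p = 0.0465). On the deposited scale, with no normalization, the change was 0.46 (adjusted p = 0.722). With the 16 arrays kept apart and pairs as a random block, it was 1.05 (SE 0.65, limma adjusted p = 0.488). That fit called 144 of 3231 probes.

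AT1G73740 was above the floor on 6 of 8 pete1 arrays and on 1 of 8 WT arrays. The pair averages were -3.27, -3.06, -3.30 and -1.79 in pete1, against -4.05, -4.10, -4.10 and -4.10 in WT. The averages of the groups did not overlap, though pete1 replicates 2 and 8 lay at the floor with the WT arrays. The log2 change was 1.24 (SE 0.35, 95% interval 0.44 to 2.03, limma adjusted p = 0.150, exact permutation p = 0.0286, the smallest possible). With the pair number as a replicate block the limma adjusted p was 0.144. As 7 of 8 WT values lay at the floor, a negative change was hardly possible. The interval and p-values of AT1G73740 are therefore a description, as for GH9B8.

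A single array carried much of the AT1G73740 value. In pete1, replicate 7 was at 0.52, with a deposited intensity of 1.51, and the next highest pete1 array was at -2.43. Without replicate 7 the change was 0.65 (adjusted p = 0.280), and without replicate 8 it was 1.81 (adjusted p = 0.381). The change was 2.19 with the floor of each array and 0.61 with the common floor doubled. With the floor of each array the median over all probes rose too, to 0.22. Since 7 of 8 WT values sat at the floor, the fit saw little spread among them.

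**Figure D3:**
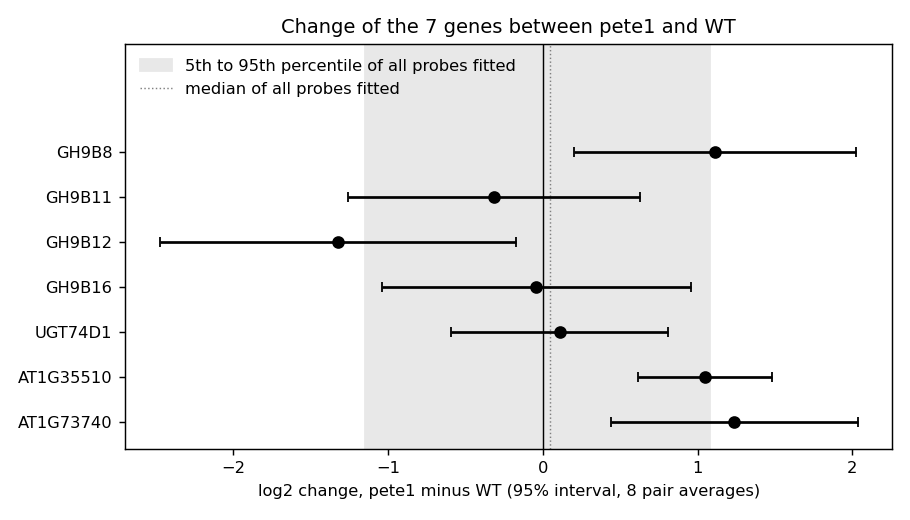
Log2 change between pete1 and WT for each of the 7 genes (points) with its 95% interval over 8 pair averages. The grey band spans the 5th to 95th percentile of all probes (-1.15 to 1.08) and the dotted line their median (0.04); GH9B8 and AT1G73740 lie just above the band, GH9B12 just below it, and GH9B11, GH9B16, UGT74D1 and AT1G35510 inside it.

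The widest gaps between consecutive arrays were in pete1. Over the 7 genes and 4 pairs (28 gaps), consecutive arrays differed by a median of 0.43 on the log2 scale in pete1 and 0.05 in WT, where more pairs had both arrays at the floor. A gap above 1 was found in 11 of 28 cases in pete1 and in 2 of 28 in WT. The largest gap was 4.63 in pete1 (AT1G73740, replicates 7 and 8) and 1.39 in WT. Over all probes the median gap of an array pair ran from 0.20 to 0.34 in pete1 and from 0.15 to 0.20 in WT.

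**Figure D4:**
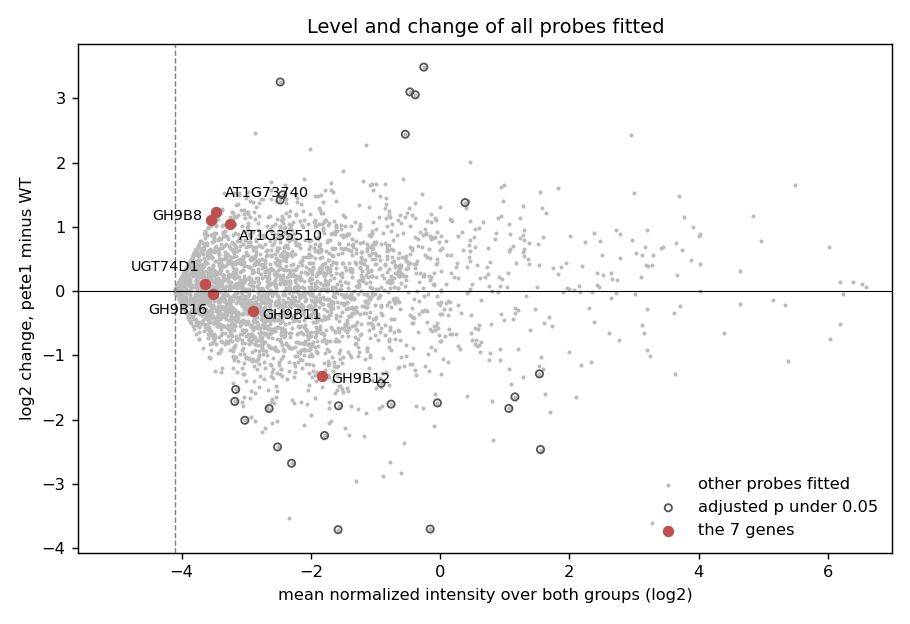
Mean normalized intensity over both groups (log2, horizontal axis) against the log2 change between pete1 and WT (vertical axis) for the 3231 probes fitted. Open circles mark the 25 probes with an adjusted p under 0.05 and red points the 7 genes, none of them circled; the dashed line is the common floor, and 5 of the 7 genes lie near the floor, with GH9B11 and GH9B12 brighter.

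Of sugar and wall genes outside the selection, few had a probe of their own. None of 48 listed genes of starch and sucrose metabolism had a probe of its own (0 of 48). Probes annotated to several genes were not searched for them. A search of the gene names for 21 further words, such as expansin, extensin, sucrose, trehalose and cell wall, found 1 gene, CSLA01, of a family that makes mannan backbones. CSLA01 was at the floor on 7 of 8 pete1 arrays and above it on 8 of 8 WT arrays, with pair averages of -4.10, -4.10, -3.55 and -4.10 in pete1, against -2.89, -3.28, -3.41 and -3.83 in WT. Its log2 change was -0.61 (SE 0.26; limma adjusted p = 0.323; exact permutation p = 0.0571), and its size depended on the floor, being -1.20 with the floor of each array and -0.04 with the floor doubled.

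The selection left out 1 gene for the word dehydrogenase in its name. This was GLDH, L-galactono-1,4-lactone dehydrogenase, which makes ascorbate in the last step of its synthesis. GLDH was above the floor on all 16 arrays, with pair averages of -2.78, -2.77, -2.61 and -1.53 in pete1, against -1.04, -2.05, -1.94 and -1.71 in WT. Its log2 change was -0.74 (SE 0.36; limma adjusted p = 0.398). The pair averages overlapped through pete1 replicates 7 and 8, with replicate 7 at 0.20. On single arrays pete1 replicate 3, at -2.05, also lay above WT replicate 3, at -2.29. Without pete1 replicate 7 the change was -1.18 (adjusted p = 0.107), and without pete1 replicate 8 it was -0.31 (adjusted p = 0.878).

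Some settings called members of the set. With 16 arrays taken as independent, GH9B8 and AT1G35510 passed (12.6% of all probes called), and with a block for each replicate number as well, GH9B12 joined them (17.5% called). With 16 arrays and the floor of each array, GH9B8 and AT1G73740 passed (13.5% called). With array weights AT1G35510 and AT1G73740 passed (6.9% called). AT1G35510 alone passed with the probes at the floor on all arrays kept (1.02% called) and without pete1 replicate 3 (0.904% called), and AT1G73740 alone passed with cyclic loess (0.756% called). GH9B11, GH9B16 and UGT74D1 passed in none of the settings run.

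**Figure D5:**
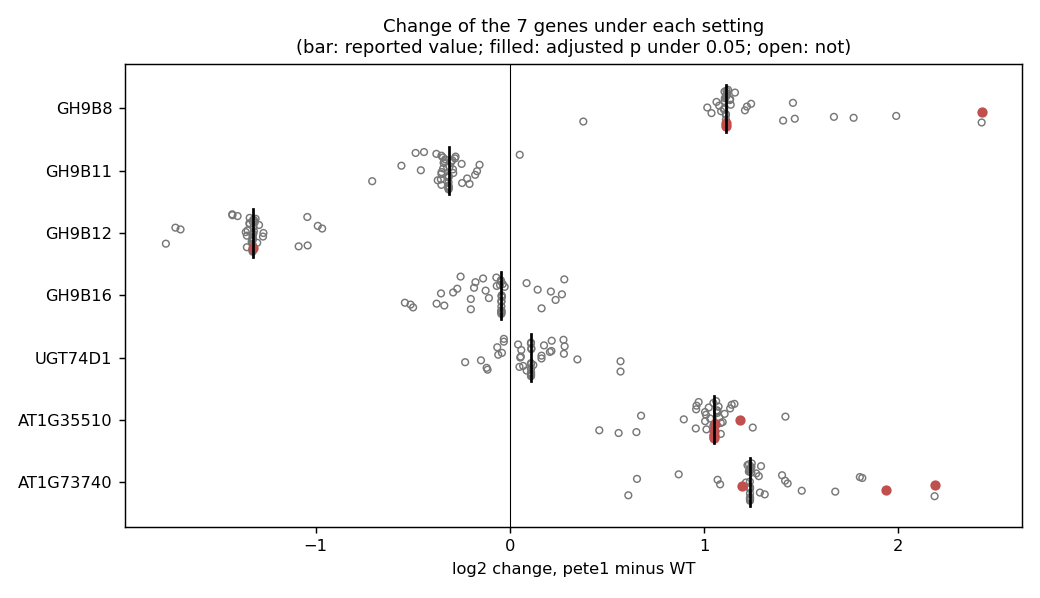
Log2 change between pete1 and WT of the 7 genes under each setting of the analysis (1 circle per setting, filled where the adjusted p was under 0.05), with the reported value as a bar. GH9B8, AT1G35510 and AT1G73740 stay to the right of 0 and GH9B12 to the left. The side of GH9B8 and AT1G73740 was largely set in advance, as 8 and 7 of their 8 WT values lay at the common floor. The circles of GH9B16 and UGT74D1 lie on both sides. For GH9B11, 1 circle lies right of 0, at 0.051 without WT replicates 1 and 2.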

How the data were processed

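Expression arrays of total RNA were compared between pete1 (8) and WT (8). The authors deposited a linear spot intensity that runs from 0 to 100 on each array; scanning, background correction and genome build were not given in the sources used here. Array medians ran from 0.0524 to 0.205, so intensities were quantile-normalized with limma 3.58.1 in R 4.3.3.

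The floor of an array was the 5th percentile of its positive normalized values, and the highest of the 16 floors (0.0581 in intensity) served all arrays before log2 was taken. The 208 probes at it on all arrays were left out, which left 3231. Consecutive replicates were averaged, as their deviations correlated (median r = 0.50, other arrays of a group -0.30). Probes were compared over 8 averages with lmFit and eBayes, two-sided, Benjamini-Hochberg at 0.05, after a test on simulated data. The number of arrays limits the precision.

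Averages with the same number deviated together across groups (r from 0.11 to 0.48, over 4 numbers), so a block fit was run. Of 8 averages, 8 matched best with their own number in the other group. The labels do not state a pairing, and the exact permutation tests of single genes ignored the pair numbers. Of 692 probes with 1 gene, 690 matched the RefSeq TAIR10.1 table, used for names; 870 carry several genes and 1877 none here. The members, lists and settings were chosen with earlier results of these data known. All members are named, with full values for each since they meet the rule for named genes (the genes the selection names, unadjusted p under 0.05, separate pair averages, smallest p in a class or highest level).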

Additional observations from a re-analysis of the deposited data

Results flagged for a closer look

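For the 7 genes and for CSLA01, GLDH and LHB1B2, the 8 arrays of each group were examined for an isolated value. An isolated array was found in 4 of 20 groups. The limit used gives about 1 in 20 for 8 independent, normally distributed values. Values at a floor and in array pairs are not of that kind, so no excess is read from the count. On the normalized log2 scale AT1G73740 was 0.52 on pete1 replicate 7, with the next value at -2.43. It was -4.002 on WT replicate 1, with all other WT arrays at the floor of -4.10. GLDH was 0.20 on pete1 replicate 7, with the next value at -2.05. CSLA01 was -3.004 on pete1 replicate 5, with all other pete1 arrays at the floor. The values on WT replicate 1 and pete1 replicate 5 stand apart because every other array of the group lies at the floor.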

How the results depend on the processing

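Among the 7 genes, GH9B8, GH9B12, AT1G35510 and AT1G73740 kept their direction under every alternative that gave them a value (40 to 42 of them). At the common floor lay 8 of 8 WT values of GH9B8 and 7 of 8 of AT1G73740. With that floor the change of GH9B8 could not be negative, and that of AT1G73740 hardly could. The kept direction of these 2 genes was thus largely set in advance and is no support. The dimmest 25% and 50% left out removed 3 and 6 of the genes. Counts of called probes and genes moved more, and the cause was not tested beyond what an alternative changes by construction. The 25 calls (8 higher, 17 lower) and 0 genes became 408 (208, 200) and 2 genes with 16 arrays as independent, 464 (283, 181) and 2 with the floor of each array as well (chosen after seeing the data), 144 (68, 76) and 0 with pairs as a random block, 11 (5, 6) and 0 with the pair number as a replicate block, 566 (282, 284) and 3 with a replicate block over 16 arrays, 223 (103, 120) and 2 with array weights, 9 (5, 4) and 0 with the floor of each array, 47 (17, 30) and 0 with the floor doubled, and 8 (5, 3) and 0 with a variance trend. The number higher was 17 with probes at the floor on all arrays kept, 5 with an offset and 5 on the deposited scale, and the number lower was 11 with the 75th percentile. AT1G35510 passed with the floor probes kept (1 gene), AT1G73740 with cyclic loess (1 gene), and both with array weights. The median change of the genes was 0.57 with the floor of each array, also over 16 arrays. Over all probes the median was 0.22 with the floor of each array, against 0.04 with the common floor. With the dimmest 50% left out, where GH9B12 alone is left, the median of the genes was -1.32. With 1 array or array pair left out there were 1 to 42 calls (1 to 13 higher, 0 to 30 lower), 0 to 1 genes (AT1G35510, without pete1 replicate 3) and a median of -0.11 to 0.35; the 1 call was without WT replicates 3 and 4 or pete1 replicates 3 and 4, the 42 without WT replicates 1 and 2. GH9B16 reversed with the floor doubled (0.16) and array weights (0.24), and UGT74D1 with an offset (-0.11), on the deposited scale (-0.12) and with array weights (-0.23). With an array or pair left out, GH9B11 ran from -0.56 to 0.051, GH9B16 from -0.35 to 0.28 and UGT74D1 from -0.15 to 0.35. Values at the floor limit what these genes can show.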
